A study of Homo sapiens with 6 samples.

Results

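The genes described here are 10 regulators of apoptosis in the BCL2 family. They were chosen by gene symbol, and BMF was placed among them because it is one of the genes that 17β-estradiol (E2) lowered most in these libraries. The rows with these symbols were 10 of the 26364 genes in the count table. All 10 passed the filter on low counts, which left 15611 genes for testing. By role they are 5 BH3-only genes (BMF, BCL2L11, BIK, BBC3 and PMAIP1), 2 effector genes (BAX and BAK1) and 3 pro-survival genes (BCL2, BCL2L1 and MCL1).

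Proteins of this family decide whether the outer mitochondrial membrane is permeabilised, the step that releases cytochrome c and starts the caspase cascade. BAX and BAK1 form the pores, the pro-survival proteins hold them in check, and the BH3-only proteins bind and block the pro-survival proteins or engage the effectors directly. Many BH3-only genes are controlled at the level of transcription by stress, loss of growth factors or hormones, while MCL1 is also known for rapid protein turnover. The gene-level counts do not separate splice forms, such as the long pro-survival and short pro-apoptotic forms of BCL2L1.

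The libraries were made from Ishikawa cells, an endometrioid adenocarcinoma line that carries the estrogen receptor. There were 3 lines: the parental line and 2 clones, clone 1 and clone 2, in which the transcription factor gene ETV4 was knocked out. All had been moved to hormone-depleted, phenol-red-free medium 5 days before treatment. Every line was sequenced once with vehicle (0.1% DMSO) and once with 10 nM E2. The knockout groups therefore held 2 clones per treatment and the parental groups 1 library each. The labels give 8 h of treatment in one field and 1 h in another. The parental genotype is represented by 1 line, so genotype and line cannot be told apart.

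Library totals ran from 28037392 to 36829479 counts. ETV4 stood at 19.7 and 28.4 CPM (read counts scaled to library size with TMM factors) in the parental DMSO and E2 libraries, against 2.42 to 3.41 CPM in the 4 clone libraries. ESR1, the estrogen receptor gene, stood at 0.97 to 1.39 of the parental level in the 4 clone libraries. The E2-induced gene GREB1 went from 5.14 to 9.83 CPM in the DMSO libraries to 50.1 to 66.2 CPM in the E2 libraries, and PGR from 1.61 to 7.31 CPM to 34.8 to 71.5 CPM. All 6 epithelial markers were expressed, and their summed level was 2918 to 3201 CPM in the DMSO libraries and 2289 to 2561 CPM in the E2 libraries. EPCAM, KRT8, KRT18 and KRT19 were lower in E2 in every line. CDH1 was higher in E2 in the parental line (445 to 494 CPM) and clone 1 (309 to 364 CPM) and lower in clone 2. PAX8 was higher in the parental line (277 to 358 CPM) and lower in both clones. The part of these marker changes in the E2 results was not tested. The ribosomal RNA precursor RNA45S5 was highest in the E2 library of clone 1, at 9685 CPM, against 3984 to 6959 CPM in the other 5 libraries. The leukocyte list summed to at most 1.64 CPM, with CD3E at 0 in every library, and the endothelial list to at most 4.55 CPM. Of the 8 stromal markers, COL1A1 was highest, at 44.8 to 75.2 CPM. COL3A1 stood at 7.93 (DMSO) and 9.73 CPM (E2) in the parental line and at 1.34 to 3.35 CPM in the clones. THY1 reached at most 2.33 CPM, and COL1A2, PDGFRA, PDGFRB, DCN and LUM at most 0.721 CPM. The parental DMSO library had the lowest TMM factor, 0.899, against 1.01 to 1.04 in the other 5 libraries. Scaling by total counts instead shifted the median E2 change over all genes by 0.18 (log2) for the parental line and by -0.02 for clone 2.

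Levels of different genes were compared as CPM per kilobase, using the longest protein-coding GENCODE v29 transcript, with the SD over the 6 libraries. MCL1 was the most abundant, at 61.0 ± 5.84 CPM per kilobase (SD, n = 6). BAX at 34.8 ± 3.01 and BCL2L1 at 34 ± 5.78 CPM per kilobase did not differ beyond their spread. BAK1 followed at 19.9 ± 4.16, and PMAIP1 stood at 11.2 ± 2.97 CPM per kilobase. BCL2L11 at 6.0 ± 1.17, BMF at 4.75 ± 3.79, BCL2 at 3.62 ± 0.551 and BIK at 3.29 ± 0.746 CPM per kilobase came next. BBC3 was lowest, at 1.71 ± 0.351 CPM per kilobase. From BCL2L11 down, the library values of each gene overlapped those of its neighbour in this order. BMF had the widest relative spread of the 10 genes, from 0.787 to 9.59 CPM per kilobase.

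RefSeq promoter windows (GRCh38.p14, 250 bases before to 50 after a start) were found for 8 of the 10 genes, 10 windows in all. Those of BMF, BBC3 and BCL2L1 are shown, because these were the 3 genes whose E2 libraries all lay below all DMSO libraries. Each is written 5′ to 3′ on the strand of the gene. Capitals mark every match, on either strand, to 6 motifs: the full palindromic estrogen response element, its core GGTCA, an ETS core CGGAAG, a forkhead motif GTAAACA, an AP-1 motif TGANTCA and an SP1 motif GGGCGG. The full element is 2 facing GGTCA cores with 3 bases between them, so each full match also counts as core matches.
BMF, chr15:40106917-40107216, minus strand: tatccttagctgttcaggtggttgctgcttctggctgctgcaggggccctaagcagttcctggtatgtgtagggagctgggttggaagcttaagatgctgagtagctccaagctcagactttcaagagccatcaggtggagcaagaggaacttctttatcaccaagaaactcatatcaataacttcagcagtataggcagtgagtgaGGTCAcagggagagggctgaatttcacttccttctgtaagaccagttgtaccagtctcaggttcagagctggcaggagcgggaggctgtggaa
BMF, chr15:40108830-40109129, minus strand: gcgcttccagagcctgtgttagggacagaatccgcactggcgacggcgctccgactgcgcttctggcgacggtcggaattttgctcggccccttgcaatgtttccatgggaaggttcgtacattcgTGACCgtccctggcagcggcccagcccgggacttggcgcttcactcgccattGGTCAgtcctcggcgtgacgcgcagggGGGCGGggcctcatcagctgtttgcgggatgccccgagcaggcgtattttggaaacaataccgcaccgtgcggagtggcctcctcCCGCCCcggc
BBC3, chr19:47232618-47232917, minus strand: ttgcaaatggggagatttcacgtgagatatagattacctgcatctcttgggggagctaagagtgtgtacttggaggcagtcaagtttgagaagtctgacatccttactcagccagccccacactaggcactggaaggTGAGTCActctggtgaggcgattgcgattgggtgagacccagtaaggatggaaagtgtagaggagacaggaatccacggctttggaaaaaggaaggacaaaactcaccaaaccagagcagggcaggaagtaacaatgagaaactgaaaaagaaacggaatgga
BCL2L1, chr20:31722819-31723118, minus strand: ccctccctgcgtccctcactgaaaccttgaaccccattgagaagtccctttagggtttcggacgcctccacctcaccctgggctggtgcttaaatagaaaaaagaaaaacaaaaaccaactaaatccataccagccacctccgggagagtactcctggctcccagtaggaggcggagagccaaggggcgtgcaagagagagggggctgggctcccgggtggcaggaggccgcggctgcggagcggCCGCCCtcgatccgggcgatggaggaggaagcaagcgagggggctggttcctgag
BCL2L1, chr20:31723914-31724213, minus strand: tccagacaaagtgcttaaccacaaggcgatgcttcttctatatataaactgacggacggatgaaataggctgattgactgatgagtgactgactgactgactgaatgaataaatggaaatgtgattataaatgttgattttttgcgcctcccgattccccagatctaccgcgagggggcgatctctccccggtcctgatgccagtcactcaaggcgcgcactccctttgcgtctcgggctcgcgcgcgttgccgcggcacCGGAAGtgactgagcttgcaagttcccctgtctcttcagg
The downstream BMF window held 1 GGTCA core, at position -43 from the start. The upstream BMF window held 2 GGTCA cores, at -124 and -72, and 2 SP1 motifs, at -45 and 41. The BBC3 window held an AP-1 motif at -113 and no GGTCA. In BCL2L1 the downstream window held 1 SP1 motif, at -5, and the upstream window 1 ETS core, at 11, and neither held GGTCA. Of the other members' windows, only that of BAX held GGTCA, at 3 places, and only that of BCL2 held the ETS core. The forkhead motif occurred in the BCL2L11 window alone. The full estrogen response element was in none of the 10 windows. Of all 35116 windows of this length, 37.4% held GGTCA, 45.0% the SP1 motif, 19.5% the ETS core, 7.71% the AP-1 motif, 3.42% the forkhead motif and 0.0570% the full element. A match is a description of the letters and shows no binding.

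The first comparison set E2 against vehicle across the 3 lines. BMF, whose product binds pro-survival proteins and is tethered to the myosin motor through a dynein light chain, was lower in E2 in each line. In the parental line it went from 19.4 CPM in DMSO to 3.69 CPM in E2. Clone 1 went from 43.2 to 15.3 CPM, and clone 2 from 44.9 to 7.24 CPM. The E2 libraries all lay below the DMSO libraries, and within each treatment the parental library was the lowest. E2 thus left 19.0% (parental), 35.4% (clone 1) and 16.1% (clone 2) of the vehicle level. As log2 differences these are -2.37 (parental), -1.49 (clone 1) and -2.62 (clone 2). In the model over the 3 lines it was -2.10 (SE 0.28), which ranked 24 from the lowest of the 15611 genes. BMF was chosen on this contrast, so these values are a description and no test is given. The lowest BMF count, 138 in the parental E2 library, has an exact 95% Poisson interval of 116 to 163, so counting error is small beside the difference. This interval covers counting error only.

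**Figure D1:**
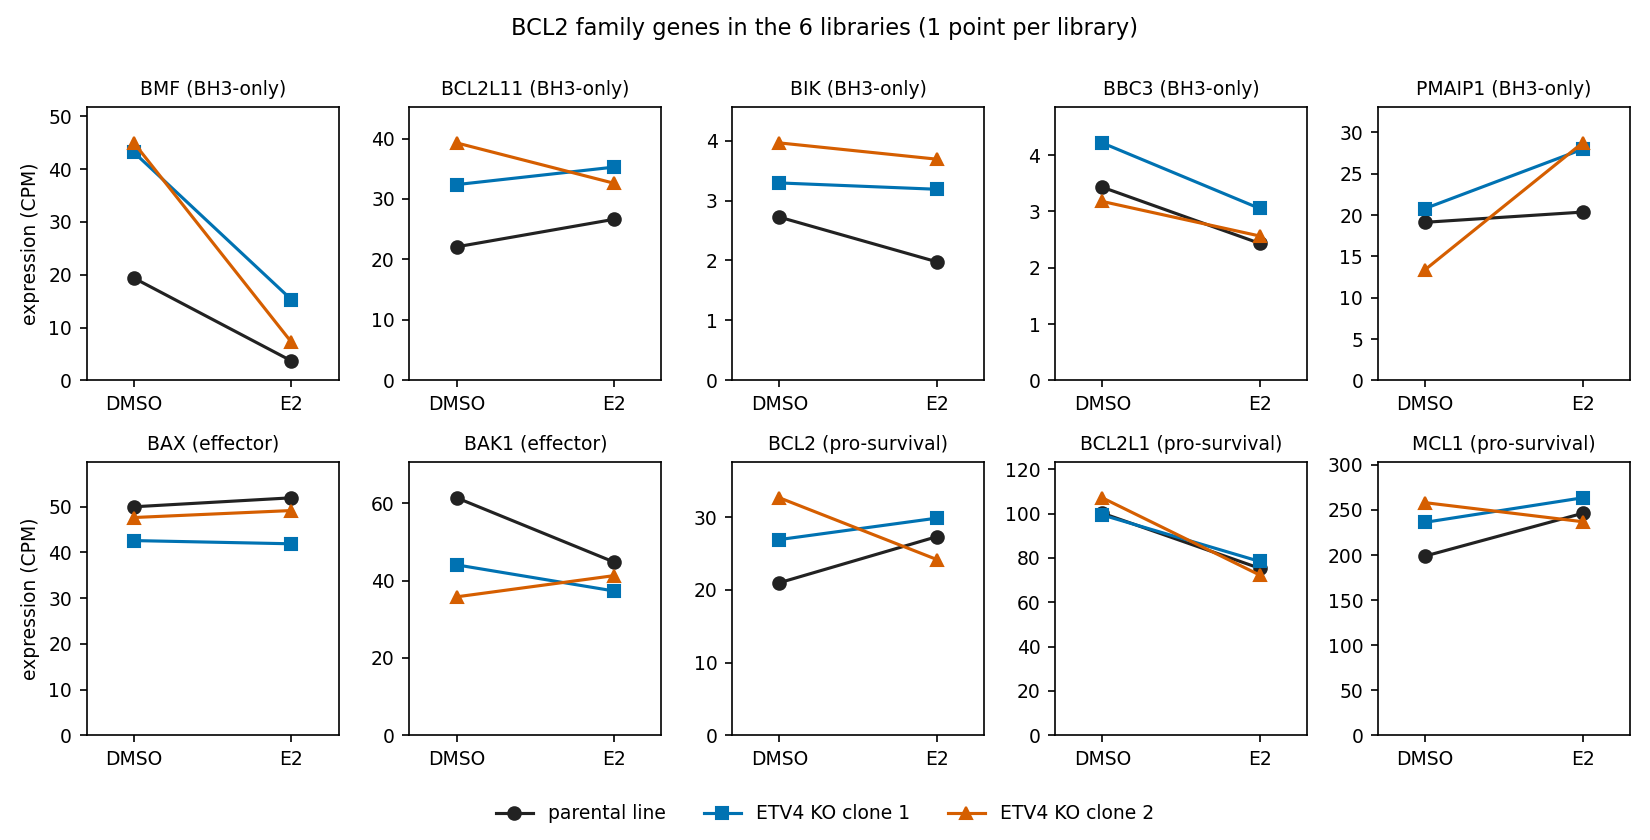
Expression of the 10 genes in CPM (y axis, linear, from 0) in DMSO and E2 (x axis), with 1 point per library and a line joining the libraries of one line: parental (circles), clone 1 (squares) and clone 2 (triangles). BMF goes from between 19.4 and 44.9 CPM in DMSO to between 3.69 and 15.3 CPM in E2, while MCL1 stays between 199 and 263 CPM.

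The other 9 genes were listed as family members and not for their values, and their E2 changes were tested. By edgeR (quasi-likelihood, Benjamini-Hochberg adjusted, threshold 0.05), 0 of the 9 passed, against 1.13% of all genes. Since the rule used this contrast, nothing is read from that share. At an unadjusted p below 0.05 there were 2 of the 9, BCL2L1 and PMAIP1, where 20.4% of all genes were. DESeq2's Wald test called BCL2L1, in a fit that called 1115 of all 15611 genes. Limma-voom called none of the 9, with 174 of all genes called. With line as a replicate block the count among the 9 was still 0, while the share of all genes called was 2.46%.

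BCL2L1, which encodes the pro-survival protein BCL-XL, was lower in E2 in each line. The DMSO libraries held 100.2 CPM (parental), 99.4 CPM (clone 1) and 107 CPM (clone 2), and the E2 libraries 75.3, 78.4 and 72.3 CPM. The lowest DMSO value was thus above the highest E2 value, and the lines lay close together in both treatments. The log2 difference was -0.44 (SE 0.11) (adjusted p 0.126 by edgeR). The adjusted p was 0.0186 in DESeq2's Wald test, 0.0990 with the replicate block and 0.0493 once GC content and length were corrected for. ABALON, an antisense gene that overlaps BCL2L1, ran from 7.45 to 9.97 CPM, and use of strand in counting is not given in the sources used here.

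BBC3, the BH3-only gene also called PUMA, was lower in E2 in each line as well. It stood at 3.43 CPM (parental), 4.21 CPM (clone 1) and 3.18 CPM (clone 2) in DMSO, and at 2.43, 3.05 and 2.56 CPM in E2. The groups did not overlap, but the lowest DMSO value (clone 2) lay next to the highest E2 value (clone 1), and the counts were 75 to 151 per library. The log2 difference was -0.43 (SE 0.22) (adjusted p 0.314 by edgeR). BIK, a BH3-only protein of the endoplasmic reticulum, was also lower in E2 in each line, but by -0.05 in clone 1 and -0.10 in clone 2 on the log2 scale, against -0.45 in the parental line. The parental BIK counts of 81 in DMSO and 74 in E2 have overlapping exact 95% Poisson intervals, 64.3 to 101 and 58.1 to 92.9, before scaling.

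PMAIP1, which encodes the BH3-only protein NOXA that binds MCL1, was the one member higher in E2 in all 3 lines. It stood at 19.1 CPM (parental), 20.8 CPM (clone 1) and 13.4 CPM (clone 2) in DMSO, and at 20.4, 28 and 28.7 CPM in E2. The parental E2 library lay below the DMSO library of clone 1, so the groups overlapped. The log2 difference was 0.52 (SE 0.22) (adjusted p 0.243 by edgeR). It grew to 0.75 after the GC and length correction, where the adjusted p was 0.0342. Without clone 2 the value was 0.26 (adjusted p 0.335 by edgeR).

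Counted over lines and without BMF, which was chosen on this contrast, 3 of the 9 genes (BIK, BBC3 and BCL2L1) were lower in E2 in every line, beside 25.2% of all genes. PMAIP1 was higher in every line, 1 of the 9, beside 27.8% of all genes. Lower in E2 with no overlap between the libraries were 2 of the 9 (BBC3 and BCL2L1), beside 10.7% of all genes. Higher with no overlap were 0 of the 9, beside 13.5% of all genes. Nothing is read from these shares, since the rule used the contrast. The median log2 difference of the 9 genes without BMF was 0.03, and that of all genes was -0.02.

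The remaining members showed no common direction. The lines disagreed for BCL2L11, which encodes BIM, with log2 differences of 0.27 (parental), 0.12 (clone 1) and -0.27 (clone 2). They did so in the same order for BCL2 (0.38, 0.15 and -0.43) and MCL1 (0.31, 0.16 and -0.12). BAK1 ran the other way, at -0.46, -0.24 and 0.21. BAX varied least, between -0.02 and 0.06. In the model these 5 genes had log2 differences from -0.17 (SE 0.15) for BAK1 to 0.11 (SE 0.13) for MCL1, and no adjusted p was below 0.527 by edgeR.

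**Figure D2:**
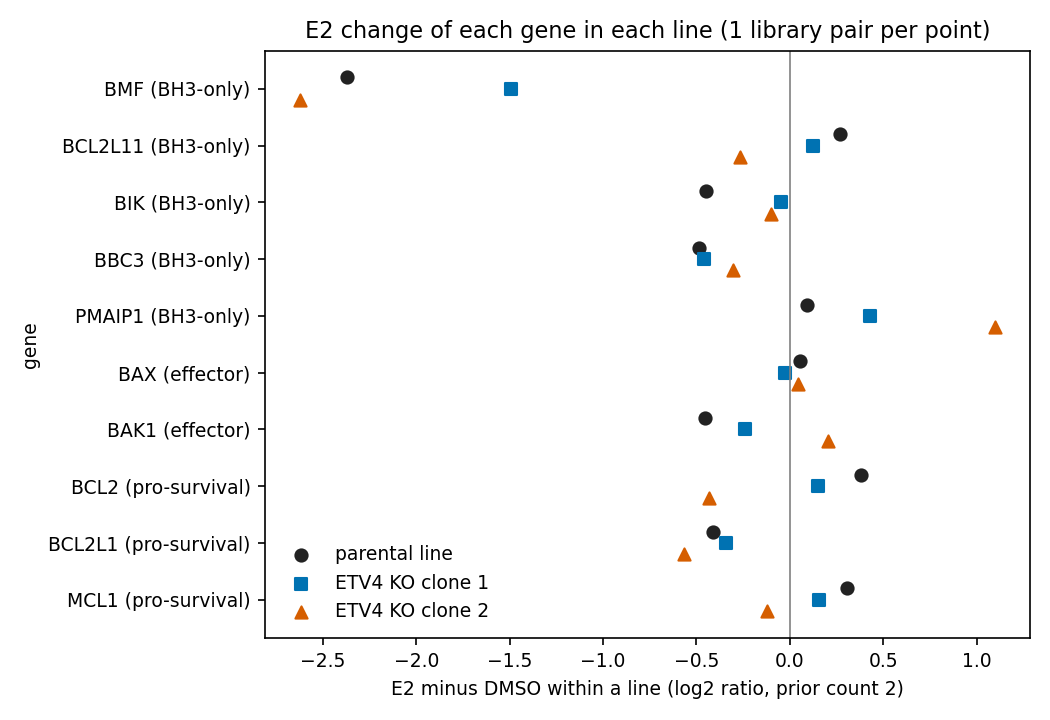
E2 minus DMSO as a log2 ratio (x axis, prior count 2) for each gene (y axis), with 1 point per line, each from 1 pair of libraries. The points of BMF lie between -2.62 and -1.49, and those of the other 9 genes between -0.57 and 1.10.

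The log2 ratio of BAX to BCL2L1 counts was higher in E2 than in DMSO in each line, by 0.47 (parental), 0.32 (clone 1) and 0.61 (clone 2). That of BAX to BCL2 moved by -0.33, -0.17 and 0.48 in the same order, and that of BAX to MCL1 by -0.25, -0.18 and 0.17. The log2 ratio of BCL2L11 to MCL1 moved by -0.04, -0.03 and -0.15. The BAX to BCL2 and BAX to MCL1 ratios thus differed in sign between the lines. These ratios are descriptions without a test.

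The E2 change was related to the GC content of transcripts in the parental line. Over all genes with a GC value, the median parental E2 change was -0.30 (log2) in the lowest of 5 equal groups by GC content and 0.35 in the highest. In clone 1 these medians were -0.05 and 0.09, and in clone 2 they were 0.04 and 0.00. BMF has a GC content of 54.8%, in GC group 4 of 5, where the parental median was 0.18. The BMF log2 difference was -2.10 before and -2.21 after the GC and length correction. The part of GC content in it was not tested. BBC3 has the highest GC content of the 10 genes, 69.7%, and PMAIP1 the lowest, 37.2%.

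**Figure D3:**
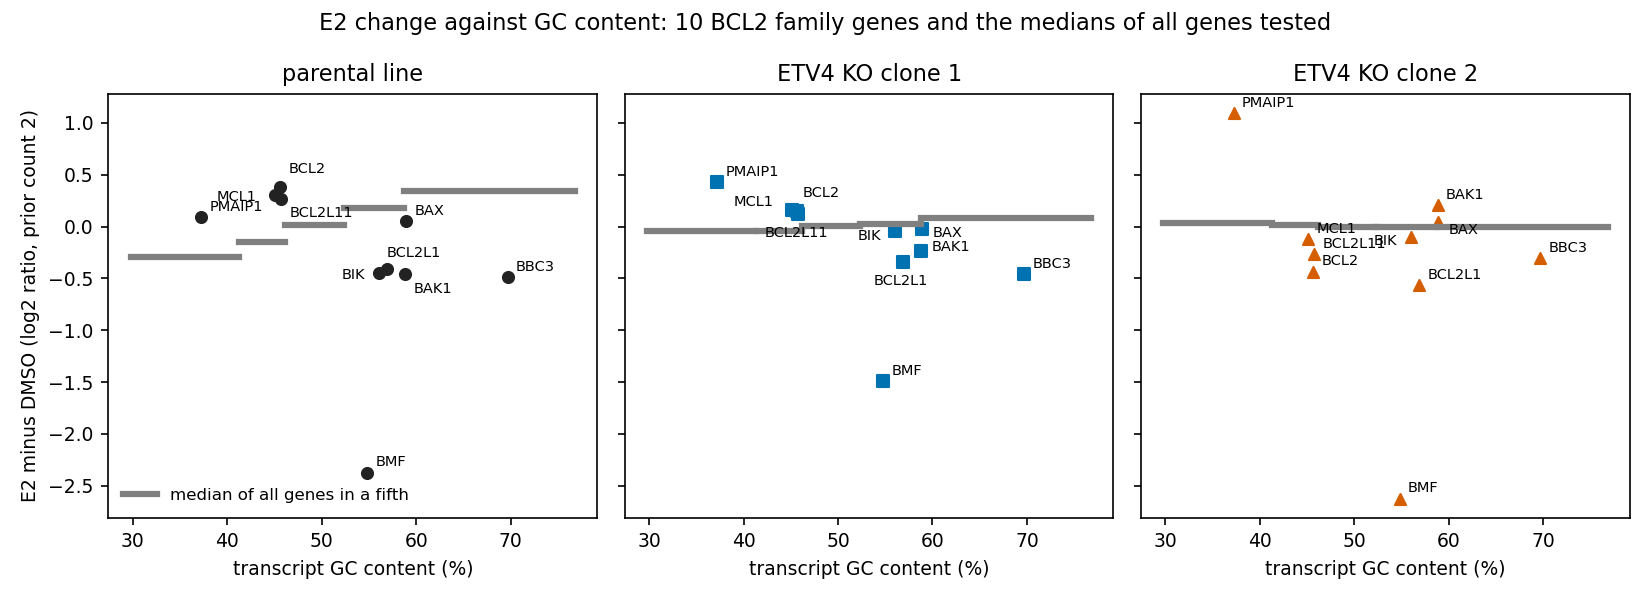
E2 minus DMSO as a log2 ratio (y axis, prior count 2) against transcript GC content in percent (x axis) in each line. Points are the 10 genes and grey bars are the medians of all genes in each of 5 equal GC groups. The bars climb from -0.30 to 0.35 in the parental line and stay between -0.05 and 0.09 in the clones, and BMF lies far below them in all 3 panels.

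The second comparison set the knockout clones against the parental line, with treatment in the model. The DMSO and E2 libraries of a line counted as separate replicates in it. Its p-values without a replicate block therefore do not measure the spread between lines. By edgeR, 0 of the 10 members passed, where 0.327% of all genes did. At an unadjusted p below 0.05 there were 4 of 10 (BMF, BCL2L11, BIK and BAK1), against 11.4% of all genes. DESeq2's Wald test called 1 member, BMF, in a fit that called 454 of all 15611 genes. Limma-voom called 0, with 57 of all genes called.

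Under both treatments BMF levels in the clones exceeded the parental level. In DMSO the clones held 44.0 ± 1.26 CPM (SD, n = 2) against 19.4 CPM, and in E2 they held 11.3 ± 5.69 CPM (SD, n = 2) against 3.69 CPM. All 4 clone-to-parental ratios exceeded 1, from 1.95 in clone 2 under E2 to 4.09 in clone 1 under E2. The log2 difference was 1.38 (SE 0.31) (adjusted p 0.182 by edgeR). DESeq2's Wald test gave 1.38 with an adjusted p of 0.000531. Without clone 1 the edgeR value was 1.09, and without clone 2 it was 1.57. Each of these fits set 1 clone against the 1 parental line, so no p-value is given for them. With line as a random replicate block in limma-voom the adjusted p was 0.246. BMF-AS1, an annotated antisense gene that overlaps BMF, has no row in the count table, so its reads cannot be told apart from those of BMF if strand was not used.

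The other BH3-only genes with the same direction in all 4 clone-to-parental ratios were BCL2L11 and BIK. BCL2L11 had parental values of 22.1 CPM in DMSO and 26.6 CPM in E2, against 32.4 and 39.3 CPM in the clones in DMSO and 35.3 and 32.6 CPM in E2. Each parental value was thus below each clone value. Its log2 difference was 0.52 (SE 0.15) (adjusted p 0.303 by edgeR). The opposite-strand gene MIR4435-2HG, whose exons overlap those of BCL2L11, stood in DMSO at 11.6 CPM in the parental line against 6.75 and 4.03 CPM in the clones, and in E2 at 3.85 CPM against 5.14 and 5.43 CPM. BIK stood at 2.72 and 1.98 CPM in the parental line in DMSO and E2, and at 3.19 to 3.96 CPM in both clones. The model gave a log2 difference of 0.60 (SE 0.24) (adjusted p 0.416 by edgeR).

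The estimates of all 5 BH3-only genes, BMF among them, were above 0 in this model, as were those of 8070 of all 15611 genes. Their median was 0.52, where the median of all genes was 0.01, and 0 of the 5 passed by edgeR. In DMSO, clone 2 held 0.93 of the parental BBC3 level and 0.70 of the PMAIP1 level. For BBC3 (0.16, SE 0.24) and PMAIP1 (0.15, SE 0.23) the sign turned without clone 1. Higher in both clones under both treatments were 3 of 10 members (BMF, BCL2L11 and BIK), as were 18.1% of all genes.

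Both effector genes had estimates below 0, as had 7541 of all 15611 genes, and neither passed by edgeR. BAK1 held 61.4 CPM in the parental line in DMSO against 44.0 and 35.8 CPM in the clones, and 44.8 CPM in E2 against 37.3 and 41.3 CPM. The parental DMSO library was the highest of the 6, and the E2 libraries of the 3 lines lay close together. Its log2 difference was -0.41 (SE 0.16) (adjusted p 0.393 by edgeR). Processed pseudogene copies of BAK1 exist in the annotation, so its counts are uncertain. BAX was at -0.17 (SE 0.13), with clone values 0.81 to 0.95 of the parental level. Lower in both clones under both treatments were these 2 of 10 members, as were 16% of all genes.

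None of the 3 pro-survival genes passed in this comparison. In DMSO the clones held 1.28 and 1.55 of the parental BCL2 level and 1.19 and 1.3 of the MCL1 level, whereas in E2 the ratios were 1.09 and 0.88 for BCL2 and 1.07 and 0.96 for MCL1. BCL2L1 stayed between 0.96 and 1.07 of the parental level in all 4 comparisons. In the model the log2 differences were 0.24 (SE 0.18) for BCL2, 0.17 (SE 0.14) for MCL1 and 0.02 (SE 0.12) for BCL2L1. GC content moved with the comparison in DMSO: the median ratio of clone 2 to the parental line was -0.27 (log2) in the lowest GC group and 0.34 in the highest. For clone 1 in DMSO these medians were -0.09 and 0.12. In E2 they were 0.12 and -0.14 for clone 1, the reverse order, and 0.05 and 0.003 for clone 2. The part of GC content in each member's value was not tested apart from the correction. With GC content and length corrected for, the BMF log2 difference was 1.27 and edgeR again called 0 members.

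**Figure D4:**
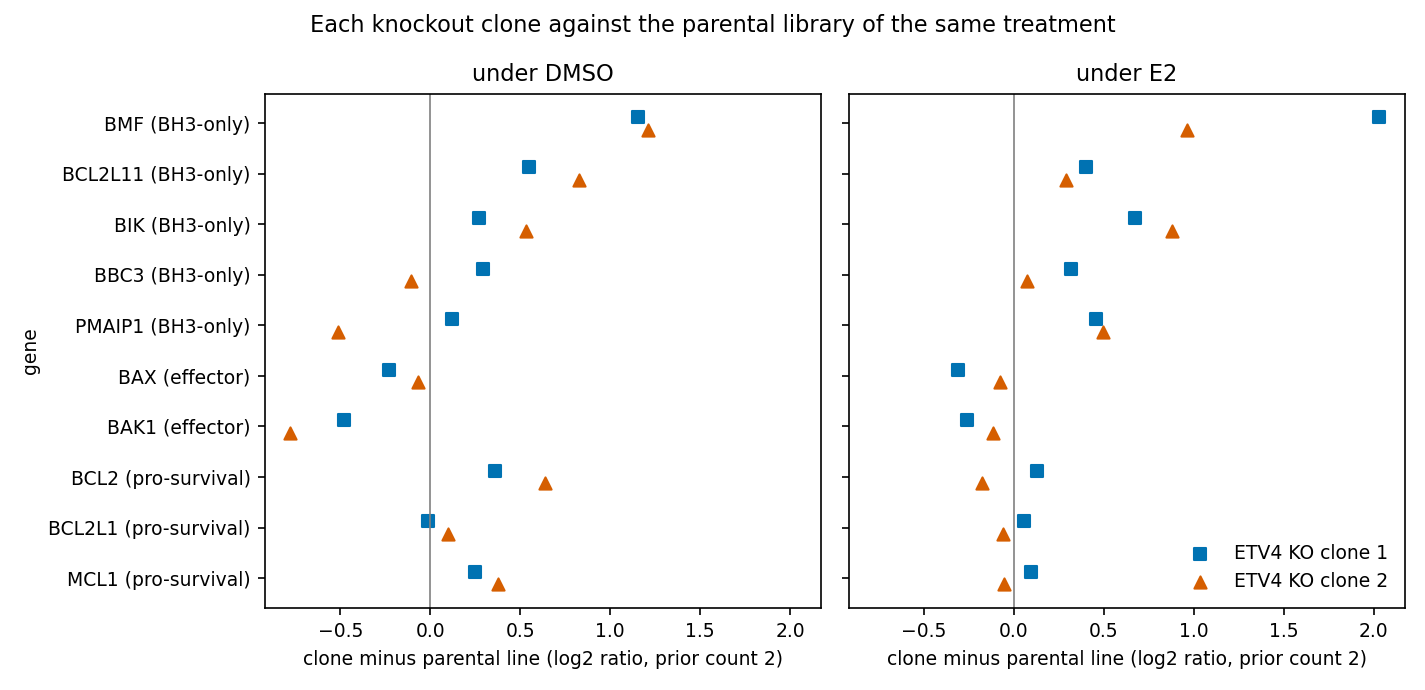
Each knockout clone minus the parental library of the same treatment, as a log2 ratio (x axis, prior count 2), for each gene (y axis), under DMSO and under E2. BMF lies between 0.96 and 2.03 in all 4 comparisons, BCL2L11 and BIK lie above 0, and BAK1 lies between -0.78 and -0.12.

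The clones were compared with each other in a model with line and treatment. By edgeR, 0 of the 10 members passed, where 0.871% of all genes did. At an unadjusted p below 0.05 there were 0 as well, against 12.1% of all genes, and DESeq2 and limma-voom called 0. The largest estimate was that of BMF, at -0.50 (SE 0.28) for clone 2 minus clone 1. For clone 1 and clone 2 the BMF values were 43.2 and 44.9 CPM with vehicle, and 15.3 and 7.24 CPM with E2. The E2 library of clone 1 is the one with the highest RNA45S5 level, and the part of that in this value was not tested. With the 4 clone libraries alone the value was -0.42. That fit set 1 clone against 1 clone, each with 1 library per treatment, so no p-value is given for it.

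The interaction is the E2 change in the clones minus that in the parental line. By edgeR no gene passed, so the share called was 0%. Of all genes 7.62% had an unadjusted p below 0.05, and 0 of the 10 members did. Limma-voom called 0 members, and DESeq2 gave an adjusted p for MCL1 alone of the 10, above the threshold. The E2 change of both clones lay above that of the parental line for 4 members (BIK, BBC3, PMAIP1 and BAK1), as for 39.5% of all genes, and below it for 4 (BCL2L11, BAX, BCL2 and MCL1), as for 44.4%.

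For BMF the interaction was 0.42 (SE 0.59) (adjusted p 0.828 by edgeR). The parental change of -2.37 lay between those of the clones. Without the E2 library of clone 1 the estimate turned to -0.21, and without the E2 library of clone 2 it was 0.86. With the replicate block it was 0.36 (adjusted p 0.343 by edgeR). With the block and the GC and length correction together it was 0.64, with an adjusted p of 0.0251 by edgeR. That fit called 1710 of all 15611 genes. It leaves 1 residual degree of freedom, which comes from the clones alone.

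For PMAIP1 the interaction was 0.64 (SE 0.41) (adjusted p 0.642 by edgeR). With the replicate block it was 0.66, with an adjusted p of 0.0258, the one member called in a fit that called 15.8% of all genes. That fit leaves 1 residual degree of freedom, which comes from the clones alone. PMAIP1 lies in the lowest GC group, where the parental E2 change of all genes had a median of -0.30 and that of clone 2 a median of 0.04. After the GC and length correction the interaction was 0.09 (adjusted p by edgeR 0.986 without the block and 0.840 with it). BCL2 had the most negative estimate, -0.52 (SE 0.32) (adjusted p by edgeR 0.633 without the block and 0.0891 with it).

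Other genes of the apoptosis pathway were read from 7 lists with 77 genes, of which 73 were tested. In the E2 comparison 0 of the 73 passed by edgeR, with and without the replicate block. The share of all genes was 1.13% without the block and 2.46% with it. Among 11 tested relatives of the family, such as BAD, BID and BOK, 5 were above 0 and 6 below, with a median of -0.01. Of the 13 apoptosome and caspase genes 10 were below 0, as were 8083 of all 15611 genes. The median of these 13 was -0.27. The median of all genes was -0.02. Inhibitor of apoptosis genes had a median of -0.11 over 6 genes, and genes of the death receptor branch one of 0.06 over 9. Partners and turnover factors of the family had a median of 0.16, with 9 of 11 above 0, beside 7528 of all 15611 genes.

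In the knockout comparison 1 of the 73 genes passed, or 1.37%, beside the 0.327% of all genes given above. CDKN1A, which encodes the cell cycle inhibitor p21, stood in the parental line at 43.2 CPM (DMSO) and 34.6 CPM (E2). The clones held 88.6 and 91.7 CPM in DMSO and 73.4 and 79.3 CPM in E2. Both clones were thus above the parental line in both treatments, as for 18.1% of all genes. The CDKN1A log2 difference was 1.10 (SE 0.12) (adjusted p 0.0271 by edgeR). This fit had no replicate block, and its 2 parental libraries come from 1 line. List medians were -0.06 for the 11 relatives of the family, -0.20 for the 13 apoptosome and caspase genes, 0.09 for the 6 inhibitors of apoptosis, -0.09 for the 9 death receptor genes and 0.05 for the 11 partners and turnover factors. The median of all genes was 0.01. In the comparison of the clones with each other 0 of the 73 passed.

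In the interaction 0 of the 73 genes passed without the block and 12 with it, or 16.4%, near the 15.8% of all genes called there. The 10 with a higher E2 change in the clones were BNIP3, BNIP3L, DIABLO, CASP6, BIRC2, BIRC5, FAS, ATF4, RRM2B and DYNLL1. The 2 with a lower one were BCL2L2 and DYNLL2. DYNLL2, the dynein light chain that binds BMF, had parental values of 59.0 CPM in DMSO and 108 CPM in E2, against 92.6 and 93.3 CPM in the clones in DMSO and 118 and 93.5 CPM in E2. DYNLL1, the light chain known to bind BIM, ran the other way in the parental line, from 574 to 376 CPM. In the clones it went from 308 to 305 CPM and from 305 to 440 CPM. MAPK8, which encodes the kinase JNK1 that phosphorylates BMF and BIM, did not pass in any comparison, with an E2 log2 difference of -0.24 (SE 0.16).

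The genes most like BMF over the 6 libraries were ranked by Pearson's r of log2 CPM among 12366 genes that averaged 2 CPM or more. The libraries share lines and treatments, so r is a description. The highest values were those of C17orf100 (0.996), AGBL5 (0.993), PDE3A (0.990), CBLB (0.990) and ALDH6A1 (0.986). PDE3A, a phosphodiesterase gene, had parental values of 3.33 CPM (DMSO) and 1.36 CPM (E2), against 4.86 and 2.71 CPM in clone 1 and 4.27 and 2.08 CPM in clone 2. The pattern was the same in AGBL5 on a smaller scale, with E2 log2 differences of -0.34 (parental), -0.19 (clone 1) and -0.36 (clone 2). The most opposite were SETD8 (-0.997), DDX31 (-0.993), E2F4 (-0.987), PISD (-0.984) and PPP1R15B (-0.981). Among the other members BCL2L1 (0.874) and BBC3 (0.866) came closest to BMF, with 2.53% and 2.77% of genes having a higher r. BMF was chosen on the E2 contrast, and these are the members already described as lower in E2 without overlap. Nothing is therefore read from these shares. PMAIP1 (-0.513) and BAX (-0.572) had the lowest values of the 9.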

How the data were processed

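Poly(A)-selected RNA was sequenced from 6 libraries made with a kit that marks strand, per the labels' protocols. The deposited table used for all tests holds raw whole-number counts per gene symbol. A second table by the authors holds a normalized signal, the count divided by a size factor, which served only as an alternative scaling. HISAT2, SAMtools, Subread, DESeq2 and the build hg19 are named in the submitters' processing notes. Their versions, the annotation and the use of strand in counting are not given in the sources used here. Column names that read DMOS and ER were read as vehicle and E2, because every line has 1 library per treatment.

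The counts went into edgeR 4.0.16 under R 4.3.3 (filterByExpr on the 4 groups, TMM, quasi-likelihood test, Benjamini-Hochberg adjustment over all 15611 genes, threshold 0.05). Standard errors (SE) were obtained by dividing the log2 estimate by the root of the F statistic. Log2 ratios of single libraries used a prior count of 2. The lines are cultures of 1 parental line and 2 clones, so p-values measure the spread between these libraries. In the knockout fits without a block and in the clone comparison, the 2 libraries of a line counted as separate replicates. Those p-values do not measure the spread between independent lines. GC content and length came from GENCODE v29 transcripts, matched for 93.7% of tested genes. Alternatives were DESeq2 1.42.0, limma-voom (limma 3.58.1), other scalings and filters, the GC and length correction, a replicate block and left-out lines or libraries. Only the main edgeR fits, without the replicate block, were run on simulated data. The simulated libraries were drawn independently with no line effect, so they do not cover the shared lines of these data. The DMSO and E2 libraries of a line are paired by the line itself. As a check, clone 2 minus clone 1 was computed per gene for each treatment, and Pearson's r between the treatments was 0.626 across genes, which are not independent replicates.

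The members, the gene lists and the tests were chosen with earlier results of these data known. Named genes were all members, genes of the 7 lists past the threshold (up to 5 per list, direction and comparison), DYNLL1, DYNLL2 and MAPK8, the 5 genes most like and most opposite to BMF, and ETV4, ESR1, PGR and GREB1 as checks. AGBL5 and PDE3A were described further after their values were seen. The results of 2 of the 7 lists are not reported here on their own.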

Additional observations from a re-analysis of the deposited data

Results flagged for a closer look

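The E2 change of PMAIP1 differed between the clones and the parental line when line entered the interaction model as a replicate block. The difference was 0.66 (log2, adjusted p 0.0258 by edgeR). The E2 change was 0.43 in clone 1, 1.10 in clone 2 and 0.09 in the parental line. That fit called 15.8% of all genes, and 1 of the 10 members. With GC content and length also corrected for, the difference was 0.09 (adjusted p 0.840 by edgeR). Over 12 alternatives the value ran from 0.09 to 0.97, and over the 11 that gave an adjusted p it ran from 0.0258 to 1.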

How the results depend on the processing

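The BMF log2 difference in E2 stayed between -2.54 and -1.91 over 11 alternatives. Its knockout difference stayed between 1.09 and 1.57 over 9. Among the 9 other members the E2 comparison called 0, and it called 1 (BCL2L1) in DESeq2, where 1115 of all 15611 genes passed. It called 2 (PMAIP1 and BCL2L1) with the GC and length correction, where 423 genes passed. With that correction and the replicate block it called 2, where 1703 genes passed. The knockout comparison called 0 members and 1 (BMF) in DESeq2, where 454 genes passed. The interaction called 0, and 1 (PMAIP1) with the replicate block, where 2470 genes passed. With the block and the correction it called 2 (BMF and BAK1), where 1710 genes passed. The clone comparison called 0. For the 4 clone libraries alone, which set 1 clone against 1 clone, only log2 differences are given. In leave-one-out fits the members called were 0 to 0 for E2 and 0 to 0 for the interaction. Those for the knockout each set 1 clone against 1 parental line, so only their log2 differences are given. The cause of these changes was not tested.

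Counts over all genes moved more. For E2, 176 became 1115 in DESeq2, 423 with the correction, 384 with the replicate block, 1703 with both, and 49 (without the parental line) to 3353 (without clone 2) in leave-one-out fits. For the knockout, 51 became 454 in DESeq2 and 114 with the correction. For the interaction, 0 became 29 in DESeq2, 2470 with the replicate block, 1710 with both, and 26 and 38 without the E2 library of clone 1 and clone 2. For the clone comparison, 136 became 236 without a filter, 63 with at least 10 counts in every library, 369 in DESeq2 and 380 with the correction.

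Some uncalled estimates near 0 changed sign. In the E2 comparison BCL2L11 and BCL2 went to -0.015 and -0.085 with the correction and to -0.013 and -0.088 with correction and replicate block. Leave-one-out fits gave -0.087 (without the parental line) to 0.20 for BCL2L11 and -0.15 to 0.27 for BCL2. In the knockout comparison they gave -0.034 (without clone 1) to 0.31 for BBC3 and -0.018 to 0.29 for PMAIP1. In the interaction they gave -0.21 (without the E2 library of clone 1) to 0.86 for BMF, -0.092 (without the DMSO library of clone 2) to 0.29 for BBC3, -0.16 to 0.067 for BAX and -0.12 to 0.013 for BCL2L1. The interaction of BCL2L1 was 0.020 with the correction and 0.018 with correction and replicate block. In the clone comparison BCL2 went to -2.41e-06 without a filter, -0.013 in limma-voom, -0.069 with the correction and -0.0016 in the clone libraries alone. BCL2L1 and MCL1 went to 0.0069 and 0.0031 with at least 10 counts, BCL2L1 to 0.0040 in the clone libraries alone and MCL1 to 0.013 with the correction.

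Other prior counts, DESeq2 size factors and the deposited signal moved none of the 30 E2 ratios of a member in a line beyond its spread. Each ratio comes from 1 pair of libraries, so that spread is not one between replicates. Total counts moved 7, all in the parental line, and changed no sign. The parental line has 1 library per treatment, so its single values have no replicate check.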
